A study of Mus musculus with 48 samples.

Results

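The circadian clock genes described here are 10 mouse genes, Arntl, Npas2, Nr1d1, Per1, Per2, Per3, Bhlhe41, Dbp, Tef and Usp2, followed in liver RNA across 4 treatment groups and, within each group, against the number that the deposited table carries in each column name. They were picked by gene symbol, with earlier results of these data known, and make up 10 of the 14251 genes in the table. Their counts beside the shares of all genes are therefore descriptions and not a test of the list. All 10 passed the filter on low counts that left 12688 genes to test.

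The molecular clock of most cells is a loop of transcription. Arntl protein (BMAL1) pairs with CLOCK or its relative NPAS2, binds E-box sequences and switches on the Per and Cry genes, Nr1d1 and the outputs Dbp and Tef. The PER and CRY proteins then shut this pair down, while REV-ERB alpha, the product of Nr1d1, represses Arntl. In liver, Arntl and Npas2 peak at the opposite time of day to Dbp, Tef, Nr1d1 and Per3, and glucocorticoids are among the signals that set the phase, with Per1 and Per2 known as direct targets of the glucocorticoid receptor.

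The samples were livers of 48 male C57BL6J mice, profiled with QuantSeq, a method that counts mRNAs by their 3′ ends. The Cort ATGLi group (14 libraries) drank corticosterone, the main glucocorticoid of rodents, at 100 ug/ml and ate food that held 571 mg/kg of atglistatin, which blocks the enzyme adipose triglyceride lipase. The Cort CON group (14 libraries) had corticosterone and the food without atglistatin. The EtOH ATGLi group (10 libraries) had 1% ethanol, the vehicle, with atglistatin food, and the EtOH CON group (10 libraries) had vehicle and the food without atglistatin. All treatments lasted 2 weeks, and the inhibitor went to the whole animal, not to liver alone. The labels call 1 of the 14 Cort ATGLi mice (library 26) and 9 of the 14 Cort CON mice diabetic. They give no time of day of collection, no cage and no batch, and do not say what the number in a name stands for, so treatment and time of collection cannot be told apart in any comparison of these genes.

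Total counts per library ran from 7449109 to 21175603. The 6 listed hepatocyte genes together had 70705 to 134291 CPM (counts scaled to the size of the library) in each library. The 7 listed pancreatic acinar genes had group medians of 16.9 to 36.6 summed CPM, but reached 5816 CPM in EtOH ATGLi library 6 and 2652 CPM in Cort CON library 30. The 3 measured genes of the T, NK and B cell list had 0.584 to 3.50 summed CPM in the Cort ATGLi and Cort CON groups, below the 6.24 to 15.4 CPM of the EtOH ATGLi and EtOH CON groups. The Kupffer cell and macrophage list had medians of 53.9 and 67.9 CPM in Cort ATGLi and Cort CON livers, against 137 and 166 CPM in EtOH ATGLi and EtOH CON livers. The sinusoidal endothelial list was lower in the corticosterone groups too, with medians of 165 and 184 CPM in Cort ATGLi and Cort CON livers, against 232 and 235 CPM in EtOH ATGLi and EtOH CON livers. The cholangiocyte list was lower in the atglistatin groups than in their control-diet groups, with medians of 49.01 CPM in Cort ATGLi and 67.3 CPM in Cort CON livers, and of 33.5 CPM in EtOH ATGLi and 50.0 CPM in EtOH CON livers. In bulk tissue, fewer cells of a type and less RNA per cell cannot be told apart, and the part of these shifts in the clock gene results was not tested.

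Promoter sequences of RefSeq (GRCm38.p6) were found for 9 of the 10 genes, Per2 being the other. The 300-base windows (250 bases before the start of a transcript and 50 after it, 12 windows in all) were searched on both strands for 6 kinds of motif. The E-box CACGTG was in the 2 windows of Tef, 1 of the 2 windows of Per1 and the window of Bhlhe41. That is 4 of the 12 windows, beside 7.15% of all 32851 windows. The E-prime box CACGTT, bound like an E-box, was in the window of Nr1d1 and in 4.68% of all windows. The D-box, the site of DBP and TEF protein, was searched as TTATGTAA, TTACATAA, TTACGTAA and TTATATAA and was in the window of Per3 and in 1.59% of all windows. The ROR element TAGGTCA or TGGGTCA, the site of REV-ERB alpha, was in 1 of the 2 windows of Arntl and in 6.45% of all windows. The cAMP response element TGACGTCA (1.79% of all windows) and the glucocorticoid response element (3.11%) were in none of the 12. None of the 6 kinds overlapped another in these windows. A match describes the letters only.

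The 250 bases before the start are shown for 4 of the 5 genes that rose with atglistatin under vehicle. They are 3 that hold a motif and Dbp, which had the largest fold of the 10 in that comparison. Usp2 also rose and is not shown, and its window has none of the 6 kinds. Capitals mark the motif. The Per3 stretch (chr4:151044666-151044915, minus strand) has D-boxes that begin 205 and 158 bases before the start. The Bhlhe41 stretch (chr6:145865421-145865670, minus strand) has an E-box that begins 153 bases before it. The Tef stretch (chr15:81811164-81811413, plus strand, the second of its 2 starts) has an E-box that begins 138 bases before it. The Dbp stretch (chr7:45704997-45705246, plus strand) has none of the 6 kinds.
Per3: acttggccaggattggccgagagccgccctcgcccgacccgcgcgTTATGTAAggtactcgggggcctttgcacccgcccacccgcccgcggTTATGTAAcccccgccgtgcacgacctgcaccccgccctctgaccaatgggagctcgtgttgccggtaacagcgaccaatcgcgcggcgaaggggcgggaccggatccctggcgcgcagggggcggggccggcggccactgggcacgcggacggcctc
Bhlhe41: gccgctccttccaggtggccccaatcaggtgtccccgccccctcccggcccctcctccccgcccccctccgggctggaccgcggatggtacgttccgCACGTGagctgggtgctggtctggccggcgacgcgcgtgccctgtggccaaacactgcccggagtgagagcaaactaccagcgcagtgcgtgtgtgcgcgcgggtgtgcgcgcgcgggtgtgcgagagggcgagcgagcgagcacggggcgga
Tef: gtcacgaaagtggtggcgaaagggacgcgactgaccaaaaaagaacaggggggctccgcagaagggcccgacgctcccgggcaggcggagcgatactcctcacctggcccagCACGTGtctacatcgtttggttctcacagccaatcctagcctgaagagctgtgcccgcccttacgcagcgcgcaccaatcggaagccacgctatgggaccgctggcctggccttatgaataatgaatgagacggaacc
Dbp: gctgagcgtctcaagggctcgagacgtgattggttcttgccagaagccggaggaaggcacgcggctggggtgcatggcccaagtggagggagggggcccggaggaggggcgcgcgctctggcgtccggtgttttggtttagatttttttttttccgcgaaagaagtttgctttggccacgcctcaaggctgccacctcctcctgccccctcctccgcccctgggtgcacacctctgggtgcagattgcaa

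The levels below are CPM, given as the lowest, median and highest library of a group. Arntl (ENSMUSG00000055116, chromosome 7, 113207465 to 113314126, GRCm38), the essential activator, had 4.96, 6.98 and 11.5 CPM in Cort ATGLi livers and 5.95, 11.3 and 12.7 CPM in Cort CON livers. It had 0.678, 4.29 and 9.28 CPM in EtOH ATGLi livers and 2.08, 9.82 and 13.2 CPM in EtOH CON livers. The EtOH ATGLi livers were thus the lowest by median, and every pair of groups overlapped. Npas2 (ENSMUSG00000026077, chromosome 1, 39193731 to 39363236), which can stand in for CLOCK, had 0.104, 0.764 and 2.67 CPM in Cort ATGLi livers and 0.270, 3.18 and 6.01 CPM in Cort CON livers. In EtOH ATGLi livers it had 0, 0.631 and 1.88 CPM, and in EtOH CON livers 0.668, 1.80 and 3.26 CPM. The single 0 was EtOH ATGLi library 14, where 14983241 total counts allow a level of up to 0.200 CPM (3 counts, counting error only). Both atglistatin groups lay below both control-diet groups by median.

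Nr1d1 (ENSMUSG00000020889, chromosome 11, 98767932 to 98775333), the repressor of Arntl, had 7.47, 14.7 and 29.6 CPM in Cort ATGLi livers and 4.68, 9.05 and 21.1 CPM in Cort CON livers. It had 20.7, 38.4 and 63.1 CPM in EtOH ATGLi livers and 12.2, 20.5 and 58.2 CPM in EtOH CON livers. Of the Cort ATGLi libraries, 12 of 14 lay below the lowest EtOH ATGLi library, and 9 of the 14 Cort CON libraries lay below the lowest EtOH CON library. Per1 (ENSMUSG00000020893, chromosome 11, 69095217 to 69109960), a repressor of the BMAL1 complex, had medians of 9.52, 7.87, 6.98 and 3.53 CPM in Cort ATGLi, Cort CON, EtOH ATGLi and EtOH CON livers, within 1.23 to 15.1 CPM in all libraries. Per2 (ENSMUSG00000055866, chromosome 1, 91415982 to 91459324), its close relative, had medians of 13.8, 15.1, 8.001 and 5.92 CPM in the same order. Its range was 8.18 to 22.9 CPM in Cort CON livers and 2.39 to 9.22 CPM in EtOH CON livers, with 12 of the 14 Cort CON libraries above the highest EtOH CON library.

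Per3 (ENSMUSG00000028957, chromosome 4, 151003652 to 151044665), a PER protein gene with a weaker role in the core loop, had 1.93, 5.51 and 8.41 CPM in Cort ATGLi livers and 0.240, 1.86 and 7.66 CPM in Cort CON livers. It had 2.75, 7.45 and 25.8 CPM in EtOH ATGLi livers and 1.09, 1.61 and 3.42 CPM in EtOH CON livers, so that 9 of 10 EtOH ATGLi libraries exceeded every EtOH CON library. Bhlhe41 (ENSMUSG00000030256, chromosome 6, 145858243 to 145865558), which encodes the E-box repressor DEC2, had 0.673, 1.83 and 5.14 CPM in Cort ATGLi livers and 0.992, 2.24 and 11.7 CPM in Cort CON livers. It had 0.805, 2.999 and 9.56 CPM in EtOH ATGLi livers and 0.307, 0.686 and 1.19 CPM in EtOH CON livers. The EtOH CON livers were the lowest of the 4 groups by median for all 4 of Per1, Per2, Per3 and Bhlhe41.

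Dbp (ENSMUSG00000059824, chromosome 7, 45705088 to 45710203), a PAR bZIP factor that carries the rhythm to liver enzymes, had 2.98, 12.5 and 26.7 CPM in Cort ATGLi livers and 1.08, 2.64 and 10.5 CPM in Cort CON livers. It had 10.5, 30.4 and 133 CPM in EtOH ATGLi livers and 1.26, 4.89 and 10.5 CPM in EtOH CON livers. The lowest EtOH ATGLi library (10.53 CPM) and the highest EtOH CON library (10.50 CPM) nearly touched but did not overlap. The share of all genes without overlap between these groups was not counted. Tef (ENSMUSG00000022389, chromosome 15, 81802421 to 81826863), a factor of the same family, had medians of 102, 66.4, 82.9 and 40.9 CPM in Cort ATGLi, Cort CON, EtOH ATGLi and EtOH CON livers, within 26.4 to 192 CPM in all libraries. Usp2 (ENSMUSG00000032010, chromosome 9, 44067021 to 44095627), a rhythmic deubiquitinating enzyme, had 29.3, 90.9 and 126 CPM in Cort ATGLi livers and 26.9, 60.7 and 122 CPM in Cort CON livers. It had 12.1, 31.7 and 187 CPM in EtOH ATGLi livers and 3.32, 5.48 and 38.5 CPM in EtOH CON livers. Of the Cort CON libraries, 12 of 14 lay above every EtOH CON library.

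**Figure D1:**
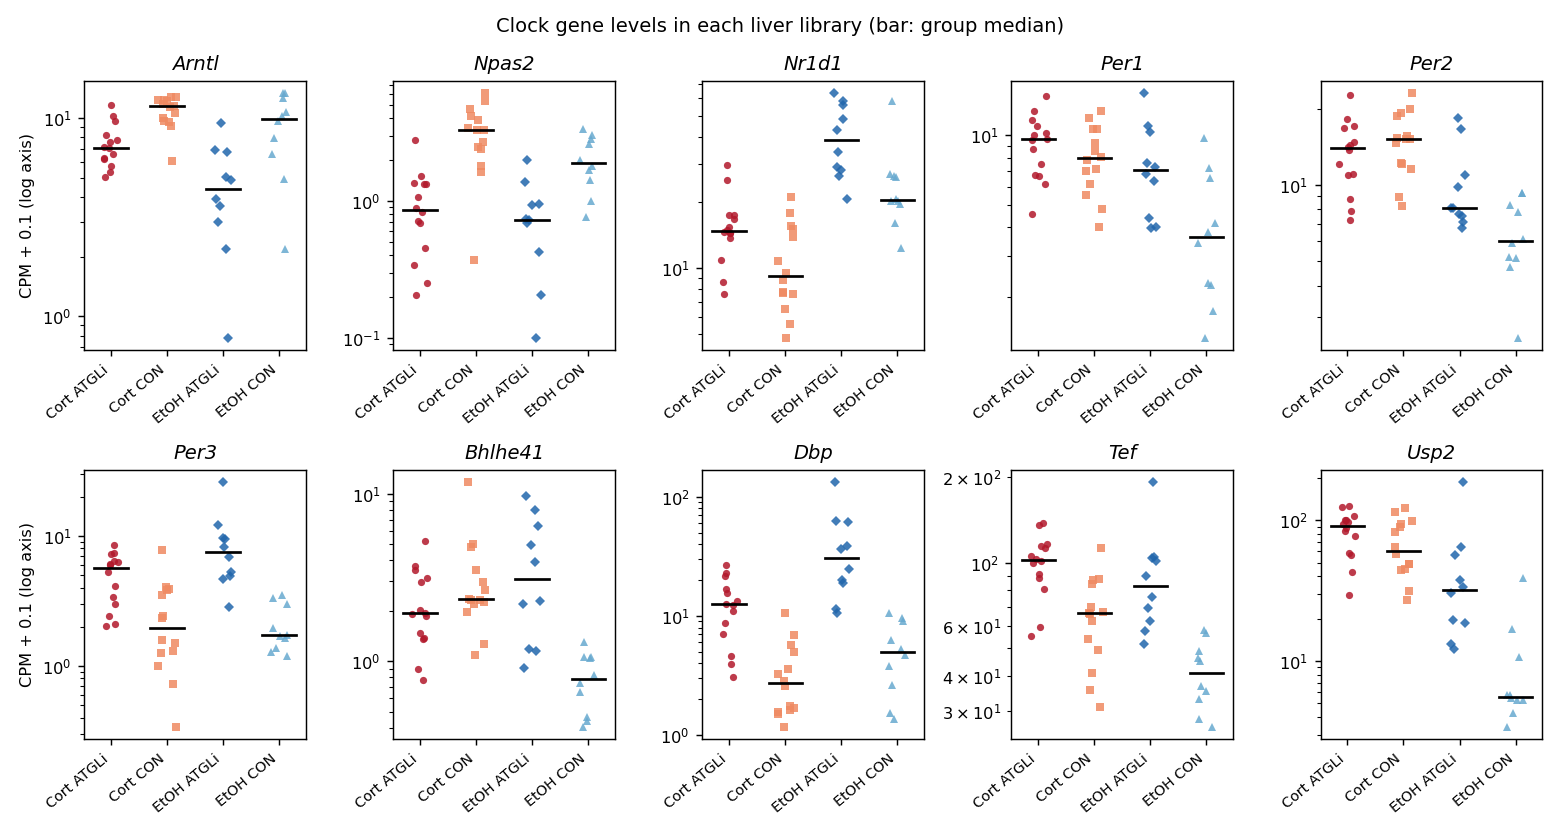
Level of each of the 10 clock genes in every library (CPM plus 0.1, log axis), by group, with a bar at the group median. Dbp and Per3 have their highest medians in EtOH ATGLi livers, Tef has its highest in Cort ATGLi livers and Npas2 is low in both atglistatin groups, while Usp2 is lowest in EtOH CON livers (median 5.48 CPM).

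Around their group means, libraries differed more in these genes than in most others. The biological coefficient of variation, the spread between libraries of a group beyond counting error, was 0.310 (Per2) to 0.643 (Dbp) for the 10 genes, against a median of 0.170 over all 12688 genes. It exceeded that of 85.1% (Per2) to 98.6% (Dbp) of genes. This is 1 value per gene over all groups, so it does not give the spread of each group. The genes were set against all others whatever their level, and Npas2 and Bhlhe41 are low. Within groups some pairs of the genes moved together and others did not. After each group's mean was taken off, log2 CPM of Dbp and Tef had a Pearson r of 0.86 over the 48 libraries, and Arntl and Npas2 had 0.71. Dbp went against Arntl (r of -0.75) and against Npas2 (r of -0.76), and Tef went against them about as far (-0.73 and -0.74). Per2 had its strongest r with Npas2 (-0.40), weaker than the strongest r of any other of the 10 genes. Several pairs lay near 0, among them Per1 and Per2 (0.025), Per1 and Bhlhe41 (-0.017) and Per3 and Bhlhe41 (0.089). These values describe libraries that share their depth and scaling, so no p is given. Genes outside the 10 were ranked only if they had a symbol in the deposited table and a mean of at least 5 CPM. Lower genes were left out. Nearest to Dbp among these 8058 genes was Nr1d2 (r of 0.78), the REV-ERB beta gene, followed by Ppm1a, Klhl21, Erf and Clmn. The farthest were Denn2b (-0.71), Leo1, Tubb2a, Dtx4 and Rfxank. Nearest to Arntl were Ypel2 (0.74), Celsr1, Clpx, Leo1 and Pnkd, and farthest were Bach1 (-0.68), Clmn, Erf, Mcl1 and Efhd2.

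**Figure D2:**
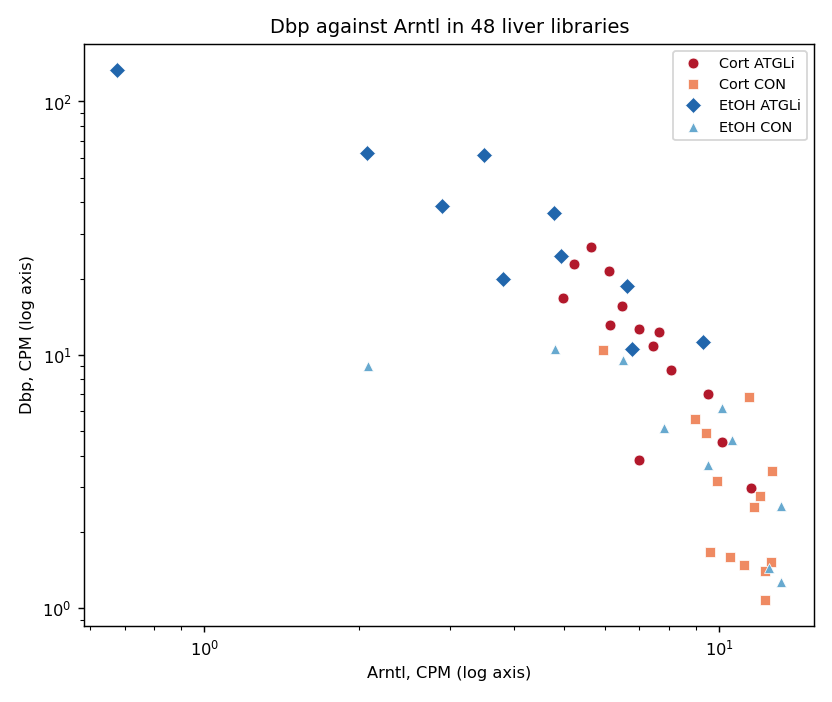
Dbp against Arntl in the 48 libraries (CPM, both axes log), with a symbol per group. Libraries with more Arntl tend to have less Dbp, and the EtOH ATGLi library with the lowest Arntl (0.678 CPM) has the highest Dbp (133 CPM).

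The log2 ratio of Dbp to Arntl (0.5 CPM added to each) puts this opposition in 1 value per mouse. It had a median of 0.73 in Cort ATGLi livers (lowest -1.79, highest 2.15), -1.98 in Cort CON livers (-3.01 to 0.76), 2.52 in EtOH ATGLi livers (0.27 to 6.82) and -0.89 in EtOH CON livers (-2.96 to 1.89). Both atglistatin groups had a higher median than both control-diet groups, and every pair of groups overlapped.

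The first comparison asks what corticosterone did on the control diet. Usp2, Bhlhe41, Per2, Per1 and Tef were higher and Nr1d1 was lower in Cort CON than in EtOH CON livers, 6 of the 10 genes, where 44.2% of all genes were called (22.5% higher, 21.7% lower; edgeR's quasi-likelihood test with Benjamini-Hochberg adjustment over all genes, adjusted p of at most 0.05, as for every call here). Usp2 averaged 69.0 ± 30.6 CPM in Cort CON livers and 10.04 ± 10.8 CPM in EtOH CON livers (SD, n = 14 and 10), a log2 fold change of 2.78 ± 0.41 (SE, adjusted p = 1.65e-07 in edgeR). Bhlhe41 rose by 2.17 ± 0.43 (adjusted p = 4.43e-05 in edgeR), and in 14 of 14 Cort CON libraries both genes lay above the EtOH CON mean. Of the core repressors, Per2 rose by 1.21 ± 0.20 (adjusted p = 1.79e-06 in edgeR, 14 of 14 libraries) and Per1 by 0.96 ± 0.26 (adjusted p = 0.00190 in edgeR, 13 of 14). Nr1d1 went the other way and was lower in 14 of 14 libraries (-1.17 ± 0.23, adjusted p = 4.44e-05 in edgeR). Tef had the smallest called change (0.66 ± 0.19, adjusted p = 0.00404 in edgeR, 11 of 14).

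The activators and the remaining outputs were not called in this comparison. Arntl had a log2 fold change of 0.25 (95% interval -0.19 to 0.69), Npas2 0.67 (-0.05 to 1.39), Dbp -0.64 (-1.49 to 0.21) and Per3 0.28 (-0.47 to 1.03). Tef (0.38, adjusted p = 0.237) and Per1 (0.70, adjusted p = 0.136) were no longer called without the libraries labelled diabetic. With the number in the name as a covariate on 1 scale for all groups, which the sample order puts in doubt for EtOH ATGLi livers (described with the slopes), Tef (0.32, adjusted p = 0.445) and Per1 (0.89, adjusted p = 0.0783) were again not called, and Dbp was called lower (-1.76, adjusted p = 0.0282). The numbers run from 27 to 50 in Cort CON and from 1 to 16 in EtOH CON livers, so these 2 groups share none. Those values extend a slope pooled over all groups, and number and corticosterone cannot be told apart here.

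Of 18 other genes of the clock machinery, 7 rose and 2 fell with corticosterone on the control diet (median log2 fold change 0.17, against 0.01 over all genes). The strongest was Ciart, an E-box repressor (3.09 ± 0.54), followed by Bhlhe40, which encodes the DEC2 relative DEC1 (1.23 ± 0.16). Hlf, the third PAR bZIP factor, rose by 0.97 ± 0.11 and Cry1, a partner of the PER proteins, by 0.73 ± 0.14. Of 26 tested genes of liver rhythms outside the clock, 13 rose and 2 fell (median 0.30), and of 12 glucocorticoid receptor targets 9 rose and 0 fell (median 1.57), among them Fkbp5 (5.02 ± 0.27), a co-chaperone of that receptor. The body-temperature and heat-shock list had 1 of 10 higher and 2 lower (median -0.02), and the fasting and feeding list 3 of 13 higher and 2 lower (median 0.16). These counts stand beside the 44.2% of all genes that were called.

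On the atglistatin diet the genes called for corticosterone were partly others, which by itself does not show that the effects differ (the interaction below tests that). Dbp, Nr1d1, Per3 and Bhlhe41 were lower and Arntl was higher in Cort ATGLi than in EtOH ATGLi livers, 5 of 10 genes, where 36.7% of all genes were called (19% higher, 17.7% lower). The 10 genes had a median log2 fold change of 0.21, against 0.02 over all genes. Dbp averaged 12.8 ± 7.28 CPM in Cort ATGLi livers and 41.6 ± 36.96 CPM in EtOH ATGLi livers (SD, n = 14 and 10), a log2 fold change of -1.70 ± 0.36 (adjusted p = 0.000204 in edgeR). Nr1d1 fell by 1.37 ± 0.23 on the log2 scale (adjusted p = 3.75e-06 in edgeR), and for both genes 14 of 14 Cort ATGLi libraries lay below the EtOH ATGLi mean. Per3 (-0.86 ± 0.31, adjusted p = 0.0257 in edgeR, 14 of 14 libraries) and Bhlhe41 (-0.88 ± 0.34, adjusted p = 0.0389 in edgeR, 13 of 14) passed by less. Arntl was higher in 14 of 14 libraries (0.73 ± 0.23, adjusted p = 0.0105 in edgeR).

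The calls of the weaker genes turned on single libraries. Without EtOH ATGLi library 14, Per3 (-0.51, adjusted p = 0.186) and Bhlhe41 (-0.64, adjusted p = 0.150) were not called, whereas Usp2 (1.41, adjusted p = 0.000902, against 0.84 and 0.0653 with all libraries) and Per2 (0.53, adjusted p = 0.0285, against 0.42 and 0.0762) were called higher. Bhlhe41 lost its call in 12 of the 48 fits that left out a library, namely those without Cort ATGLi libraries 13, 14, 17, 18, 23, 38, 41 and 42 or EtOH ATGLi libraries 10, 12, 13 and 14 (adjusted p up to 0.150). Per2 also gained a call without Cort ATGLi library 14 or 23 or EtOH ATGLi library 13 (0.47 to 0.54), and Usp2 without Cort ATGLi library 42 or EtOH CON library 12 (0.91 and 0.84). Bhlhe41 was not called by DESeq2 (-0.87, adjusted p = 0.0522) or in a fit of the 2 groups alone (-0.91, adjusted p = 0.0520). Npas2 (0.38, 95% interval -0.48 to 1.23), Per1 (0.27, -0.21 to 0.76) and Tef (0.14, -0.23 to 0.51) were not called.

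Among the other clock genes on this diet, 4 of 18 rose and 1 fell (median 0.18, against 0.02 over all genes), with Cry1 highest (0.98 ± 0.14). Of 26 liver rhythm genes 9 rose and 2 fell (median 0.07), and of 12 glucocorticoid receptor targets 7 rose and 1 fell (median 0.75). The heat-shock list had 0 of 10 higher and 1 lower (median 0.08), and the feeding list 3 of 13 higher and 1 lower (median -0.02). These counts stand beside the 36.7% of all genes that were called.

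The difference between the 2 corticosterone effects was tested as an interaction, in which 1.43% of all genes were called (0.701% positive, 0.725% negative). Bhlhe41 and Usp2 were called, 2 of the 10. The corticosterone effect on Bhlhe41 was lower on the atglistatin diet than on the control diet by a log2 difference of -3.05 ± 0.55 (adjusted p = 0.000540 in edgeR), from opposite signs in the 2 diets. For Usp2 the difference was -1.94 ± 0.52 (adjusted p = 0.0428 in edgeR). Bhlhe41 kept its call in all 48 fits that left out a library, but Usp2 lost its call in 19 of 48 fits that left out a library. These 19 were the fits without Cort ATGLi library 17, 25, 42 or 48, Cort CON library 27, 32, 36 or 45, EtOH ATGLi library 11, 13 or 14, or EtOH CON library 1, 2, 3, 4, 9, 10, 11 or 15, with the smallest value without EtOH ATGLi library 14 (-1.36, adjusted p = 0.144). The other 8 genes were not called, with differences from -1.14 (Per3, adjusted p = 0.308) to 0.49 (Arntl, adjusted p = 0.604). Of the 18 other clock genes, Ciart (-2.85 ± 0.67), Bhlhe40 (-0.88 ± 0.22) and Hlf (-0.60 ± 0.16) were called.

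**Figure D3:**
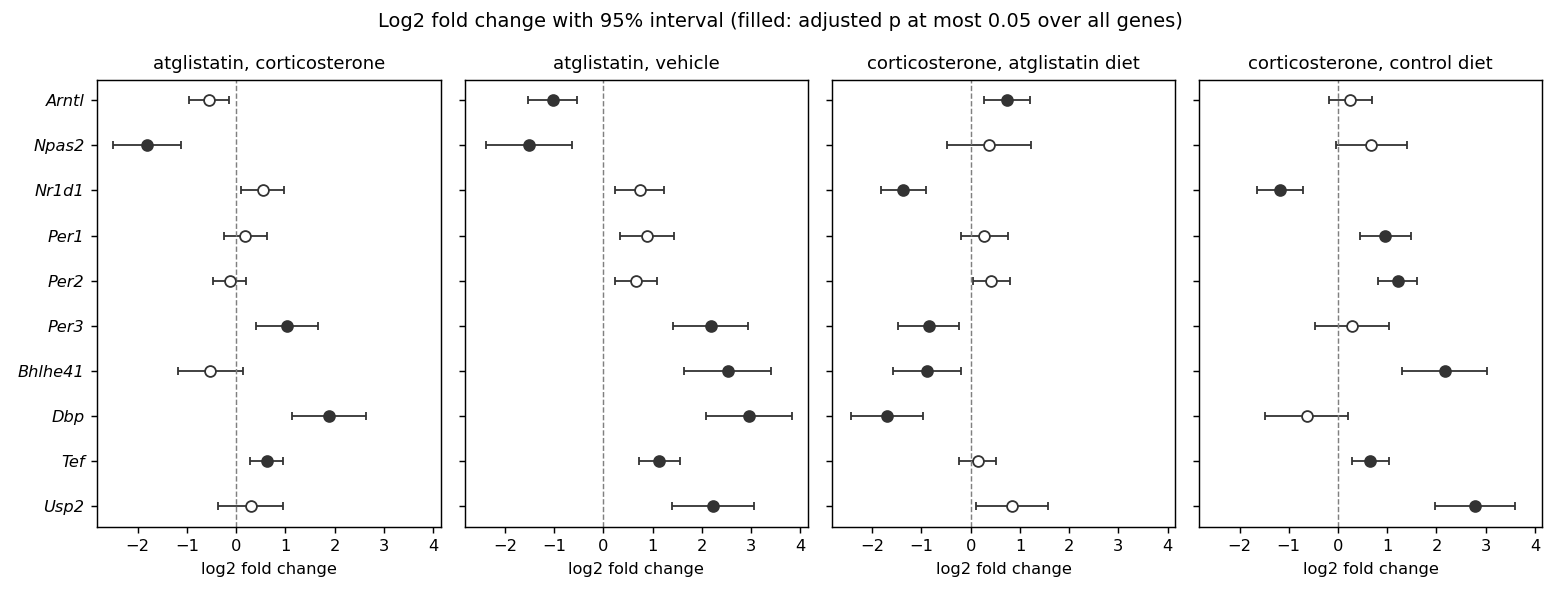
Log2 fold change of the 10 clock genes with its 95% interval in the 4 comparisons between groups, with filled symbols for calls. Dbp, Per3, Bhlhe41 and Usp2 lie furthest above 0 for atglistatin under vehicle (2.95, 2.17, 2.53 and 2.23), while Bhlhe41 lies above 0 for corticosterone on the control diet and below 0 on the atglistatin diet.

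Atglistatin under vehicle is the comparison in which most of the 10 genes were called. Dbp, Bhlhe41, Usp2, Per3 and Tef were higher and Npas2 and Arntl were lower in EtOH ATGLi than in EtOH CON livers, 7 of 10 genes, where 3.13% of all genes were called (1.47% higher, 1.66% lower). The 10 genes had a median log2 fold change of 1.00, against 0.00 over all genes. Dbp averaged 41.6 ± 36.96 CPM in EtOH ATGLi livers and 5.402 ± 3.36 CPM in EtOH CON livers (SD, n = 10 each), a log2 fold change of 2.95 ± 0.44 (adjusted p = 3.04e-05 in edgeR). Its relative Tef rose by 1.13 ± 0.20 (adjusted p = 0.000408 in edgeR) and Per3 by 2.17 ± 0.37 (adjusted p = 0.000244 in edgeR). Bhlhe41 rose by 2.53 ± 0.44 (adjusted p = 0.000293 in edgeR) and Usp2 by 2.23 ± 0.41 (adjusted p = 0.000592 in edgeR). For these 5 genes, 10 of 10 EtOH ATGLi libraries lay above the EtOH CON mean.

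Both activators fell. Arntl averaged 4.53 ± 2.53 CPM in EtOH ATGLi livers and 9.03 ± 3.72 CPM in EtOH CON livers (SD, n = 10 each), a log2 fold change of -1.03 ± 0.25 (adjusted p = 0.00983 in edgeR, 9 of 10 libraries). Npas2 fell by 1.52 ± 0.43 on the log2 scale (adjusted p = 0.0383 in edgeR, 10 of 10 libraries). Npas2 lost its call in 11 of 48 fits that left out a library, namely without EtOH ATGLi library 7, 9, 10, 11, 12, 13 or 14 or EtOH CON library 1, 2, 3 or 15 (adjusted p up to 0.0786). Arntl was not called in a fit of the 2 groups alone (-1.03, adjusted p = 0.0814).

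The other repressors lay above 0 without a call. Nr1d1 had a log2 fold change of 0.73 (95% interval 0.23 to 1.23, adjusted p = 0.0960 in edgeR), Per1 0.87 (0.33 to 1.42, adjusted p = 0.0626) and Per2 0.66 (0.23 to 1.08, adjusted p = 0.0736). DESeq2 called Per1 (adjusted p = 0.0338) and Per2 (adjusted p = 0.0450) as well. Nr1d1 was called without EtOH CON library 16 (0.96, adjusted p = 0.0140), Per1 without EtOH ATGLi library 5, 12 or 13 or EtOH CON library 10, 12 or 16 (0.94 to 1.12), and Per2 without EtOH CON library 2 or 12 (0.73 in both).

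Of 18 other clock genes 3 were called and 9 had an unadjusted p under 0.05, where 3.13% and 16.1% of all genes did. Of the 3, 2 rose (Ciart by 2.85 ± 0.56 and Nr1d2 by 0.60 ± 0.17) and 1 fell (Nfil3, a D-box repressor, -0.89 ± 0.17), with a median of -0.04 against 0.00 over all genes. Of 26 liver rhythm genes 5 rose and 1 fell (median 0.29), among them the cytochrome gene Cyp2a5 (1.86 ± 0.24) and the nuclear receptor gene Nr1i3 (1.01 ± 0.17). Of 12 glucocorticoid receptor targets 1 rose, Fkbp5 (0.94 ± 0.25), and 0 fell (median -0.02). The cold-induced Rbm3 rose (1.01 ± 0.23) and the co-chaperone gene Dnajb1 fell (-2.02 ± 0.51) among 10 heat-shock and temperature genes (median -0.19). None of the 13 fasting and feeding genes was called in edgeR (median 0.16), and 3 had an unadjusted p under 0.05.

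The last comparison between groups was that of atglistatin under corticosterone. Dbp, Per3 and Tef were higher and Npas2 was lower in Cort ATGLi than in Cort CON livers, 4 of 10 genes, where 11.7% of all genes were called (5.19% higher, 6.47% lower). The median log2 fold change of the 10 genes was 0.24, against 0.00 over all genes. Dbp averaged 12.8 ± 7.28 CPM in Cort ATGLi livers and 3.46 ± 2.67 CPM in Cort CON livers (SD, n = 14 each), a log2 fold change of 1.89 ± 0.38 (adjusted p = 0.000366 in edgeR, 13 of 14 libraries). Tef rose by 0.62 ± 0.17 (adjusted p = 0.0112 in edgeR, 12 of 14) and Per3 by 1.04 ± 0.31 (adjusted p = 0.0222 in edgeR, 11 of 14). Npas2 averaged 0.882 ± 0.674 CPM in Cort ATGLi livers and 3.15 ± 1.53 CPM in Cort CON livers (SD, n = 14 each) and was lower in 14 of 14 (-1.81 ± 0.34, adjusted p = 0.000177 in edgeR).

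Arntl lay just outside the threshold in this comparison (-0.55 ± 0.20, adjusted p = 0.0622 in edgeR, 13 of 14 libraries). It was called by DESeq2 (adjusted p = 0.04997), in a fit of the 2 groups alone (adjusted p = 0.00182), with the number as a covariate (-0.63, adjusted p = 0.0370), and in fits without Cort ATGLi library 18 or 42, Cort CON library 50, EtOH ATGLi library 14 or EtOH CON library 10. Nr1d1 (0.53, 95% interval 0.10 to 0.97) was called with that covariate (0.80, adjusted p = 0.00580) and without Cort CON library 46 (0.63, adjusted p = 0.0430). Per1 (0.18, -0.25 to 0.62), Per2 (-0.14, -0.48 to 0.21), Bhlhe41 (-0.52, -1.18 to 0.13) and Usp2 (0.29, -0.36 to 0.94) were not called. Of the 18 other clock genes 2 rose, among them Nr1d2 (0.84 ± 0.15), and 2 fell, among them Nfil3 (-0.74 ± 0.15), with a median of -0.04. Of 26 liver rhythm genes 3 rose and 4 fell (median 0.01). The glucocorticoid receptor list had 0 of 12 higher and 3 lower (median -0.54), the temperature list 0 of 10 called in edgeR (2 at an unadjusted p under 0.05, median -0.06) and the feeding list 1 of 13 higher and 3 lower (median -0.06). These counts stand beside the 11.7% of all genes that were called.

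The 4 comparisons share their groups, so their values stand side by side and are not independent. For atglistatin, Dbp had 1.89 under corticosterone and 2.95 under vehicle, Tef 0.62 and 1.13, Per3 1.04 and 2.17, and Npas2 -1.81 and -1.52. None of these 4 genes was called in the interaction.

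Within the Cort CON group, livers of mice labelled diabetic were compared with those labelled nondiabetic (9 and 5 libraries, 12003 genes tested). Library 36, labelled nondiabetic, had a fed glucose of 242, against 254 to 407 in the diabetic mice and 131 to 145 in the other 4 nondiabetic mice. None of the 10 clock genes was called in edgeR or in DESeq2, 0 had an unadjusted p under 0.05, and 0% of all genes were called. Without library 36 the edgeR count was again 0 for the 10 genes and for all genes. The largest log2 difference was in Per3 (1.06, 95% interval -0.05 to 2.17), which averaged 2.97 ± 2.23 CPM in diabetic livers and 1.45 ± 0.775 CPM in nondiabetic livers (SD, n = 9 and 5). Dbp followed (0.81, -0.19 to 1.81), and the other 8 genes lay between -0.14 (Bhlhe41) and 0.38 (Tef).

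The number in the name was followed within each group. It may not be on 1 scale in all groups. In the order of the sample records the other 3 groups run by their numbers, whereas EtOH ATGLi libraries 5 to 8 stand after number 4, libraries 9 to 12 between numbers 18 and 23, and libraries 13 and 14 between numbers 42 and 45. The other 3 groups have no 5 to 8, 19 to 22, 31, 39, 43 or 44. At 31 and 39 no EtOH ATGLi library stands in the order. A number shared with another group is therefore not shown to match libraries. The slopes and the covariate fits use the numbers as given.

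In EtOH ATGLi livers the number runs without a gap from 5 to 14. In that order Dbp had 10.5, 18.7, 11.3, 19.9, 24.6, 36.3, 38.8, 62.3, 61.2 and 133 CPM. Arntl ran the other way, with 6.77, 6.64, 9.28, 3.80, 4.92, 4.78, 2.90, 2.07, 3.50 and 0.678 CPM. Bhlhe41 had 0.805, 2.18, 1.09, 1.05, 2.11, 4.84, 3.82, 7.91, 6.32 and 9.56 CPM. By the 3 blocks of the record, Dbp had 10.5 to 19.9 CPM in libraries 5 to 8, 24.6 to 62.3 CPM in libraries 9 to 12 and 61.2 to 133 CPM in libraries 13 and 14, and Arntl had 3.80 to 9.28, 2.07 to 4.92 and 0.678 to 3.50 CPM. Libraries 10 to 14 all exceeded libraries 5 to 9 in both Dbp and Bhlhe41. The same held for Tef (90.0 to 192 CPM in libraries 10 to 14, 51.5 to 75.8 CPM in libraries 5 to 9) and for Per3 (8.08 to 25.8 and 2.75 to 6.82 CPM), while Usp2 (30.1 to 187 and 12.1 to 37.2 CPM) and Nr1d1 (33.9 to 63.1 and 20.7 to 42.8 CPM) overlapped. Arntl, Npas2, Per1 and Per2 overlapped too. The cut splits the group evenly by number and runs through the block of libraries 9 to 12. The share of all genes without overlap at this cut was not counted.

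**Figure D4:**
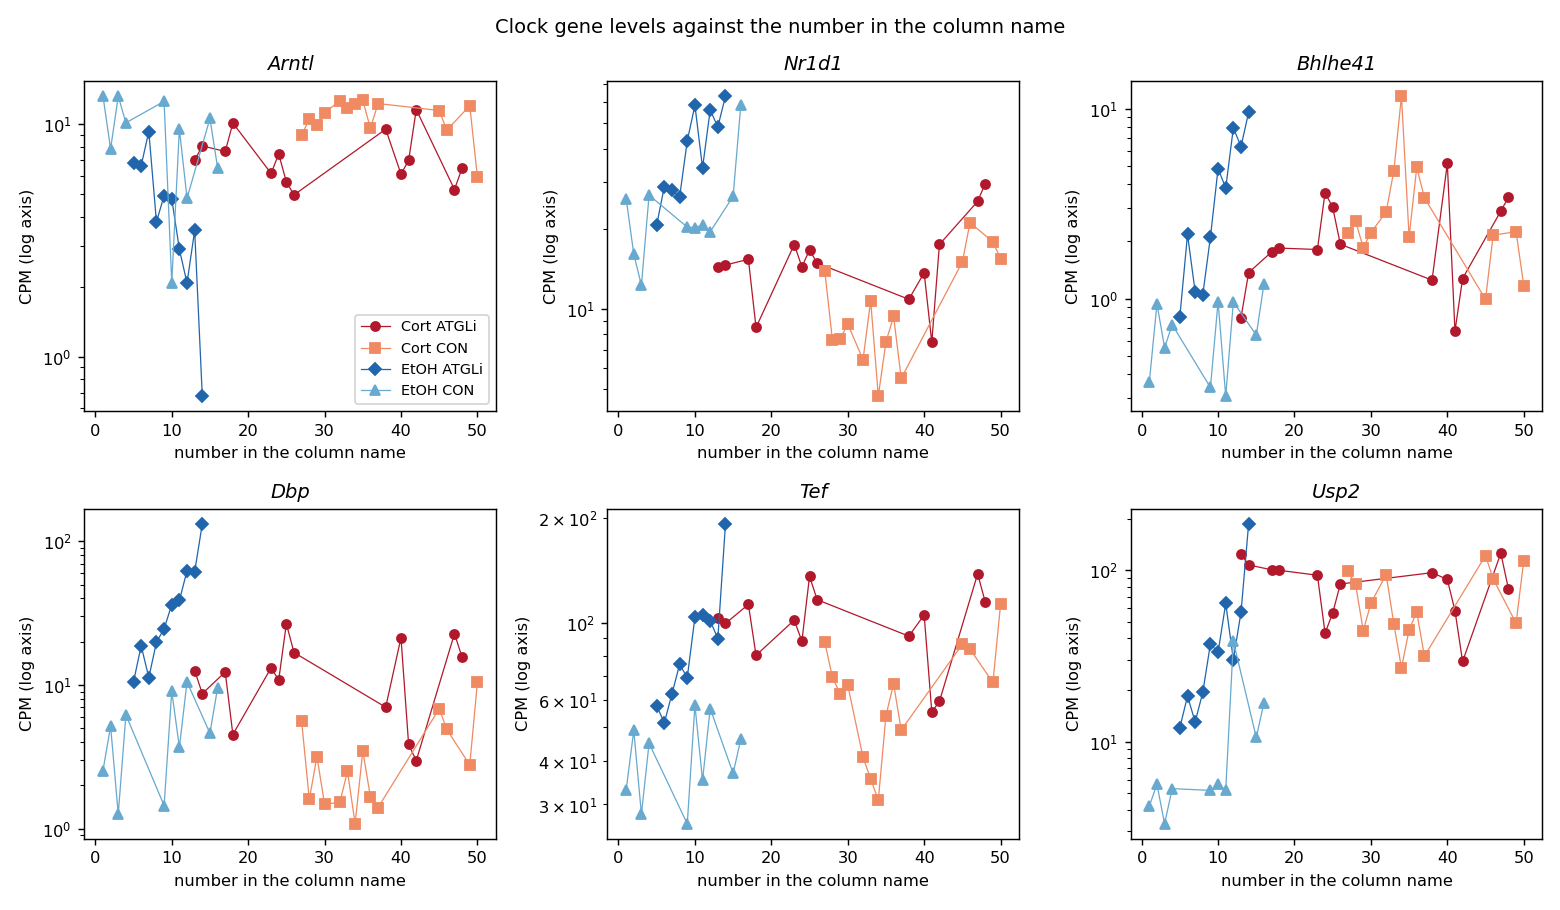
CPM of 6 clock genes (log axis) against the number in the column name, with a symbol and line per group. In EtOH ATGLi livers Dbp, Bhlhe41, Tef and Usp2 are higher at higher numbers and Arntl is lower (their numbers may be on another scale than in the other groups), with library 14 at the end of each (Dbp 133 CPM, Arntl 0.678 CPM).

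As a slope of log2 level per 10 numbers, 4 of the 10 genes were called in this group, where 0.15% of all genes (19 of 12688) were, 0.118% upward and 0.0315% downward. Usp2 rose by 3.76 ± 0.68 (adjusted p = 0.00846 in edgeR), Bhlhe41 by 3.80 ± 0.79 and Dbp by 3.68 ± 0.74 (adjusted p = 0.0193 for both in edgeR), and Arntl had a slope of -2.50 ± 0.55 (adjusted p = 0.0312 in edgeR). Of the uncalled genes, Npas2 had -3.51 (95% interval -5.81 to -1.21), Per3 2.45 (1.09 to 3.80), Tef 1.68 (0.85 to 2.52), Nr1d1 1.60 (0.59 to 2.60), Per2 1.44 (0.52 to 2.35) and Per1 0.82 (-0.35 to 1.99). Of the other lists, Ciart (4.55 ± 0.96), Cry2 (1.28 ± 0.27), the uridine phosphorylase gene Upp2 (2.60 ± 0.56) and Fkbp5 (2.29 ± 0.48) were called, which are 2 of 18 other clock genes, 1 of 26 liver rhythm genes and 1 of 12 glucocorticoid receptor targets. The temperature and feeding lists had 0 called in edgeR, with 0 of 10 and 4 of 13 at an unadjusted p under 0.05.

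These calls rest on few libraries. Without library 14 none of the 10 genes was called (Dbp 3.25, Bhlhe41 3.85, Usp2 2.82 and Arntl -1.94, adjusted p from 0.441 to 0.473). None was called without library 5 (adjusted p from 0.0660 to 0.109) or without library 7 (0.0543 to 0.135) either. Without libraries 5 and 14 together the slopes were 3.23 for Dbp, 3.72 for Bhlhe41, 2.74 for Usp2 and -2.18 for Arntl, and 0 of 12688 genes were called. Arntl also lost its call without library 6, 11 or 12 and in a fit of the group by itself (-2.49, adjusted p = 0.107), and Tef gained one without library 13 (1.90, adjusted p = 0.0387) and in the fit of the group by itself (1.69, adjusted p = 0.0285).

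Depth moved with the number in the same libraries. Total counts were 14983241 to 21086840 in libraries 10 to 14 and 9318390 to 14457619 in libraries 5 to 9. The Kupffer cell and macrophage list had 134 to 173 summed CPM in libraries 10 to 14 and 94.8 to 156 CPM in libraries 5 to 9, and the hepatocyte list had medians of 92109 and 92068 CPM. The part of depth in the slopes was not tested. Labelled fed glucose was 100 to 159 in libraries 10 to 14 and 111 to 135 in libraries 5 to 9, and insulin was 0.464 to 1.99 and 0.841 to 2.05, in units the labels do not give.

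In the other 3 groups none of the 10 genes had a called slope in edgeR, the one tool run for slopes. In Cort ATGLi livers 0% of all genes were called and 0 of the 10 genes had an unadjusted p under 0.05, with slopes from -0.17 (Per1) to 0.22 (Bhlhe41). In Cort CON livers 0% of all genes were called and 3 of the 10 had an unadjusted p under 0.05, Nr1d1 (0.50), Dbp (0.66) and Per3 (0.62). In EtOH CON livers 0.236% of all genes were called (0.0867% upward, 0.15% downward) and again 3 of the 10 had an unadjusted p under 0.05, Usp2 (1.59, adjusted p = 0.0729), Per1 (1.20, adjusted p = 0.115) and Nr1d1 (0.61, adjusted p = 0.236). So had 9 of 12 glucocorticoid receptor targets, 6 of 18 other clock genes and 8 of 26 liver rhythm genes in EtOH CON livers. The temperature list had 1 of 10, the feeding list 3 of 13 and all genes 14.9%. The numbers run from 13 to 48, 27 to 50 and 1 to 16 in these groups, so a slope per 10 numbers covers a different share of each, and its size is not comparable with that in EtOH ATGLi livers.

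Whether the slopes differed between the 4 groups was tested in 1 fit, which takes the numbers of all groups as 1 scale and is limited by that. In it 0.126% of all genes were called. Usp2 was called (adjusted p = 0.0164 in edgeR), and the others were not, with Bhlhe41 (adjusted p = 0.0686) and Dbp (adjusted p = 0.0732) next. All 10 genes had an unadjusted p under 0.05 in this test, as did 13.6% of all genes. So did 9 of 18 other clock genes, 9 of 26 liver rhythm genes and 7 of 12 glucocorticoid receptor targets. The temperature list had 2 of 10 and the feeding list 3 of 13. Called among the lists were the receptor targets Fkbp5 and Zbtb16 (2 of 12) and the liver rhythm gene Upp2 (1 of 26), each at an adjusted p of 0.0256 in edgeR.

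**Figure D5:**
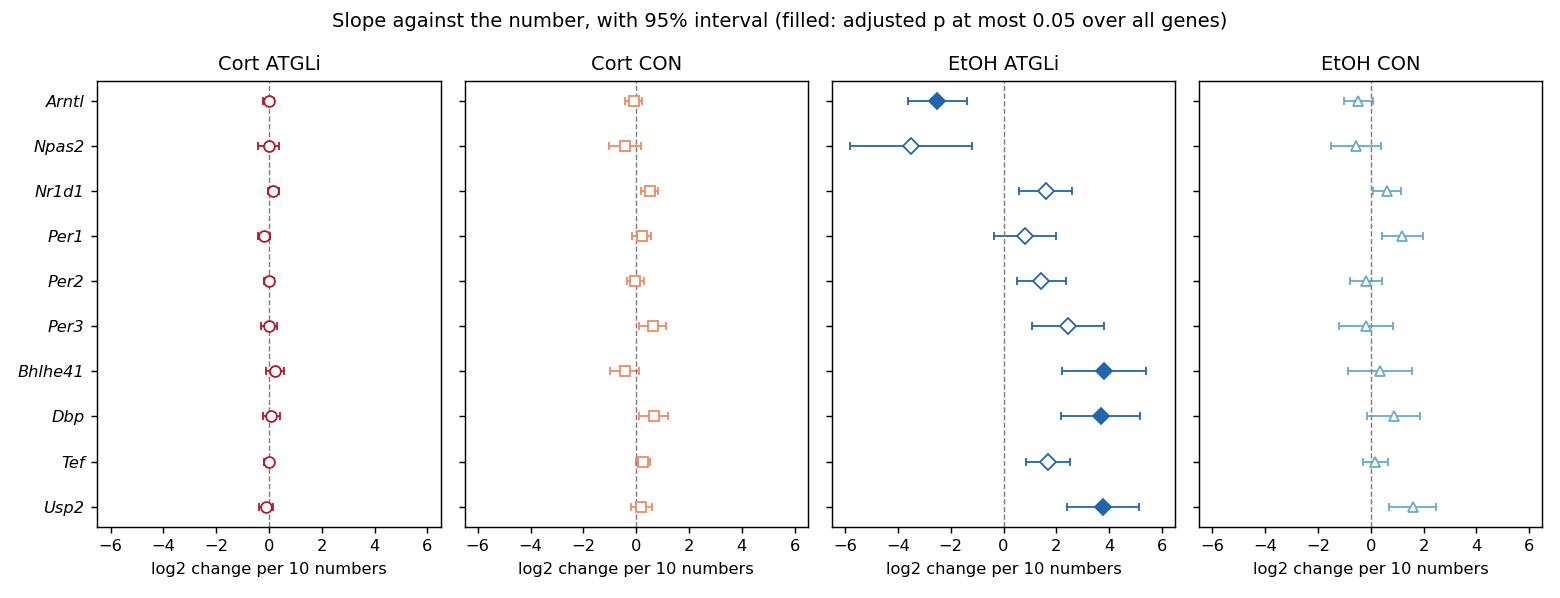
Slope of log2 level per 10 numbers with its 95% interval for the 10 clock genes in each group, with filled symbols for calls. The numbers of EtOH ATGLi livers may be on another scale, so sizes are not comparable between that panel and the others. In the EtOH ATGLi panel Bhlhe41 has 3.80 and Npas2 -3.51, and in the other panels most intervals include 0.

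A level that goes up and down along the numbers would escape a line, so runs of neighbouring numbers (gaps of at most 2) were also compared. In Cort CON livers Nr1d1 differed between the runs 27 to 37, 45 to 46 and 49 to 50, with medians of 7.63, 18.03 and 16.6 CPM (adjusted p = 0.0387 in edgeR). It was 1 of the 10, where 1.69% of all genes were called. The 10 libraries of the first run had 4.68 to 13.8 CPM, below the 15.0 to 21.1 CPM of the other 4. Among the liver rhythm genes, Por, Upp2 and Cyp7a1 were called in the same test. In Cort ATGLi livers (5 runs, 0.0946% of genes called) and EtOH CON livers (3 runs, 0.229%), none of the 10 was called in edgeR, and 1 and 2 of them had an unadjusted p under 0.05. By their numbers EtOH ATGLi livers form a single run, so they had no such test, and the 3 blocks seen in the order of the record were described above and not tested.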

How the data were processed

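The labels' protocols describe liver ground while frozen, a column-based RNA kit and Lexogen QuantSeq libraries sequenced as 50-base reads from 1 end. The deposited table of counts per gene and the authors' normalized signal table were used, the second for symbols. Its values equal the deposited counts divided by 1 factor per library. Per the submitters' processing notes, the build was GRCm38 and the tools R 3.6 and DESeq2 1.24.0. The aligner, the counter and the use of strand: not given in the sources used here. Symbols came from the deposited table for 12491 genes and from GENCODE M21 for 1728.

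In R 4.3.3 with edgeR 4.0.16, genes were kept by filterByExpr (minimum count 10, minimum total 15), scaled by TMM and fitted over all 48 libraries with a mean per group, or a mean and a slope per group. The diabetic labels were fitted in the Cort CON group alone. CPM are counts over TMM-scaled library sizes. The direction counts give libraries on the called side of the other group's mean. p-values were adjusted by Benjamini-Hochberg over all genes. They weigh a difference or slope against the spread between libraries, taken as separate mice. Each library has its own glucose and insulin entry, though some glucose values repeat. Cages are not given, so mice that shared a cage could not be taken into account. No pair of libraries in a group was alike within sampling noise. The test was checked on simulated counts. The members and lists were chosen with earlier results of these data known. All 10 genes are named whatever their values, and of the other lists only some called genes. Other settings were DESeq2 1.42.0, RLE factors, no filter, the groups alone, subsets of libraries, the number as covariate or rank, and a replicate block. The fit of the shared-number libraries without the block was added after seeing the data. Read depth was 7449109 to 21175603 counts. Values of some single genes of the other lists are not reported here.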

Additional observations from a re-analysis of the deposited data

Results flagged for a closer look

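Each clock gene was checked for a library far from the rest of its set. The sets were EtOH ATGLi livers, EtOH CON livers, and Cort CON livers by diabetic label, and Cort ATGLi livers were not checked. The check used CPM with limits meant for normal values, for which chance flags about 1 in 20. CPM of these genes reach far upward and some of the genes move together, so that rate need not hold here. Among the 40 sets, 9 had such a library, each the highest of its set. Of these, 4 were the same liver, EtOH ATGLi library 14, which was the highest of its group in Dbp (133.0 CPM, the next 62.3 CPM), Tef (192.0 CPM), Per3 (25.8 CPM) and Usp2 (187.0 CPM). In EtOH CON livers, library 16 stood apart in Nr1d1 (58.2 CPM) and library 12 in Usp2 (38.5 CPM). Among diabetic Cort CON livers, library 50 stood apart in Per3 (7.66 CPM) and library 34 in Bhlhe41 (11.7 CPM). Among nondiabetic Cort CON livers, library 32 stood apart in Usp2 (94.2 CPM).

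Effects that differed between groups were those of corticosterone on Bhlhe41 (atglistatin diet minus control diet, log2 difference -3.05) and on Usp2 (-1.94), and the slopes of Usp2 against the number, which differed between the 4 groups (adjusted p = 0.0164 in edgeR), if the numbers of all groups are taken as 1 scale.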

How the results depend on the processing

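With RLE size factors, or with no filter on low counts, the direction and call of all 100 member values stayed as reported. DESeq2 kept 56 of 60. The following counts of genes called (of members where said) moved by over 1.5 times, and the cause was not tested where none is given. For the slopes these were 2 genes in Cort CON and 84 in EtOH CON livers without the filter, 1 in Cort ATGLi, 9 in EtOH ATGLi and 19 in EtOH CON livers with each group fitted alone, and 19 in EtOH CON livers by rank of the number. Without the 2 libraries farthest in number (so fewer samples), the slopes had 125 genes called in Cort ATGLi, 0 members and 0 genes in EtOH ATGLi and 9 genes in EtOH CON livers. Without the 6 libraries with Cpa1, a pancreatic gene, above 20 CPM, 207 genes were called for atglistatin under vehicle, and 64 genes and 1 member in the interaction. Without libraries labelled diabetic, 3614 genes were called for corticosterone on the control diet, 609 for atglistatin under corticosterone, and 76 genes and 1 member in the interaction. With the number as a covariate, 3426 genes were called for corticosterone on the control diet (groups that share no number), and 1 member in the interaction. The main counts were 5606, 4652, 397 and 1479 genes in the order of the report's comparisons, and 181 in the interaction. Taking the number from the title gave the same numbers.

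Uncalled values of single genes turned sign in some settings. Npas2 had 0.15 in the interaction without the libraries high in Cpa1, and Nr1d1 0.10 there with the covariate. Per3 had -0.51 for corticosterone on the control diet without the diabetic libraries and -0.42 with the covariate, and Tef had -0.077 on the atglistatin diet with it. By rank, the slope of Per2 was 0.013 in Cort CON and 0.0075 in Cort ATGLi livers. Without the 2 farthest libraries, the slope of Arntl was 0.014 in Cort CON livers, and in Cort ATGLi livers Arntl had 0.061, Npas2 0.21, Dbp -0.14, Nr1d1 -0.063, Per2 0.023 and Per3 -0.11, while Per1 had -0.83 in EtOH ATGLi livers.

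Leaving out 1 library at a time gave 6 to 6 members called for corticosterone on the control diet, 4 to 6 on the atglistatin diet, 6 to 9 for atglistatin under vehicle, 4 to 5 under corticosterone, 1 to 2 in the interaction, 0 to 0 for the diabetic label, and for slopes 0 to 5 in EtOH ATGLi livers and 0 to 0 in the others. Genes called ran from 5277 to 5732, 4247 to 4710, 277 to 519, 1253 to 1719, 122 to 237 and 0 to 0 in that order, and for slopes from 0 to 7 in Cort ATGLi, 0 to 1 in Cort CON, 0 (without library 14) to 34 (without library 13) in EtOH ATGLi and 3 (without library 16) to 146 (without library 1) in EtOH CON livers. Values that turned sign ran, for slopes in Cort ATGLi livers, from -0.082 to 0.026 (Arntl), -0.039 to 0.16 (Dbp), -0.30 to 0.090 (Npas2), -0.058 to 0.057 (Per2), -0.067 to 0.074 (Per3) and -0.085 to 0.021 (Tef). In Cort CON livers they ran from -0.16 to 0.042 (Arntl) and -0.17 to 0.087 (Per2), in EtOH ATGLi livers from -0.12 to 1.27 (Per1), and in EtOH CON livers from -0.34 to 0.10 (Per2) and -0.49 to 0.012 (Per3). For the diabetic label they ran from -0.66 to 0.030 (Bhlhe41), -0.24 to 0.093 (Npas2) and -0.083 to 0.38 (Nr1d1).

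Some replicate numbers occur in 2 groups, 9 to 12 in both vehicle groups and 13 and 14 in both atglistatin groups. Same-numbered libraries did not deviate together across all genes (r from -0.127 to 0.0323 for numbers 9 to 12, and -0.072 for 13 and 14, whose 2 pairs give 1 value by construction). Over the 10 clock genes alone r was 0.60, -0.24, -0.46 and 0.17 for numbers 9 to 12 and -0.20 for 13 and 14. The sample records place these EtOH ATGLi libraries elsewhere, so the numbers were not taken as pairs. With the replicate block, only libraries with shared numbers enter, and 2 members and 4 genes were called for atglistatin under vehicle, and 2 members and 56 genes for corticosterone on the atglistatin diet, where Tef had -0.40 and Per2 -0.70. The same libraries without the block, a fit chosen after seeing the data, gave 0 members and 0 genes, and 3 members and 300 genes, with Tef at -0.50, Per2 at -0.63 and Usp2 at -0.095.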
